A study of Mus musculus with 24 samples.

Results

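Shc2, Atg9b, Ush1c, Ddhd1 and P4ha2 were examined in every library as 5 genes whose counts were lower in mouse pituitaries that carried a Cre transgene than in pituitaries that did not. They were taken by their gene symbols from 35191 genes in the count table, and all 5 were among the 21927 genes that passed the filter on low counts. They were selected on their measured levels in earlier results of these same counts, above all in the comparison of male Egr1cKO with male Egr1cKO control pituitaries. Their differences between Cre-carrying and Cre-free libraries are therefore given here as a description, with no test.

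The libraries were 24 non-stranded polyA RNA-seq libraries of mouse pituitary, in 8 groups of 3. Egr1cKO mice carried floxed Egr1 on both alleles together with Cre, and Egr1cKO controls carried the floxed alleles without Cre. Cre controls carried Cre with unfloxed Egr1, and wild type mice carried neither. Each genotype was sampled in females and in males. The sources used here do not name the Cre driver, the cells in which it acts, the removed exon, the strain or the age. Nothing in the labels beyond a library number says that the 3 libraries of a group came from separate animals, so p-values measure the spread between these samples, which may be technical.

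The 5 genes belong to different pathways. Shc2 encodes a member of the Shc adaptor family, which links activated receptor tyrosine kinases to Grb2, Sos and Ras. Atg9b encodes 1 of the ATG9 membrane proteins, lipid scramblases that supply membrane to the growing autophagosome. Ush1c encodes harmonin, a PDZ-domain scaffold that holds together the Usher protein complex of sensory hair cells. Ddhd1 encodes a phospholipase A1 that prefers phosphatidic acid, and P4ha2 encodes a catalytic subunit of collagen prolyl 4-hydroxylase, the enzyme of the endoplasmic reticulum that hydroxylates prolines in collagen chains.

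In GRCm38 coordinates with GENCODE M21 gene models, Shc2 (ENSMUSG00000020312) lies at chr10:79618051-79637918 on the minus strand. Atg9b (ENSMUSG00000038295) lies at chr5:24384181-24392143, Ush1c (ENSMUSG00000030838) at chr7:46195350-46238503 and Ddhd1 (ENSMUSG00000037697) at chr14:45588467-45658143, all on the minus strand. P4ha2 (ENSMUSG00000018906) lies at chr11:54100095-54131665 on the plus strand. The counts cover whole genes, so they do not tell exons or transcripts apart.

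The 250 bases before the transcription start differed widely in composition, and 3 of them are shown because they cover that range and because Egr1, the floxed gene, encodes a factor that binds GC-rich sites. RefSeq promoters of GRCm38.p6 are printed 5′ to 3′ on the strand of the gene, with the words GCGTGGGCG, GGGCGG and CCAAT in capitals on either strand.
Ddhd1: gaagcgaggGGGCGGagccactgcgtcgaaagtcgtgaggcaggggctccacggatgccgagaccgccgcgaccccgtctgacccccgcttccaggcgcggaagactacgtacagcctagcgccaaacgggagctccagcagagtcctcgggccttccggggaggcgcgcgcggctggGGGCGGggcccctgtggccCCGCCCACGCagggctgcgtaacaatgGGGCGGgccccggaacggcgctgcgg
Shc2: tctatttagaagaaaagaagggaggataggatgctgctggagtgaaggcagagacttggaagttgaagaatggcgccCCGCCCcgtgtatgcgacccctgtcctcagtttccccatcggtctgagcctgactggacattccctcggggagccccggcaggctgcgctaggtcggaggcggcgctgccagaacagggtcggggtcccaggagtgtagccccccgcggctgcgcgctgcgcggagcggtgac
Atg9b: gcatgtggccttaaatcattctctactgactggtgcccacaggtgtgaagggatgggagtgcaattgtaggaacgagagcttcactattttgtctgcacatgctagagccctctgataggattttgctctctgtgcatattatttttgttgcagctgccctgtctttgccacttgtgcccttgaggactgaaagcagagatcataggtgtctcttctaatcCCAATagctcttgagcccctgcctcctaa

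These stretches are chr14:45658144-45658393, chr10:79637919-79638168 and chr5:24392144-24392393, all read from the minus strand. The Ddhd1 stretch was 74% G and C, that of Shc2 64% and that of Atg9b 47.6%, against a median of 52.4% over 32851 RefSeq promoters. Ush1c had 61.2% and P4ha2 70% over the same length. The RefSeq start used for P4ha2 lies 829 bases inside the GENCODE gene given above, and that of Ush1c 13 bases inside. The ratio of observed to expected CpG was 0.94 for Ddhd1 and 0.0706 for Atg9b, against a median of 0.373. The Egr1 word GCGTGGGCG stood in the Ddhd1 promoter on the opposite strand, from base 52 to base 44 before the start, where it overlaps a GGGCGG word, and in none of the other 4. It occurs in 0.536% of all promoters of that length. A second Egr1 word, GCGGGGGCG, found in 2.57% of promoters, was in none of the 5. The GC box GGGCGG, found in 32.7% of promoters, was in 4 of the 5 genes, and CCAAT, found in 33.8%, was in Atg9b alone. TATAAA (12.4% of promoters), the Pou1f1 word ATGNATA (7.92%) and the palindromic oestrogen response element (0.0639%) had no match in the 5. A match describes these letters and is not a measured site.

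Library totals ranged from 15486069 to 26255343 counts. The pituitary label was met by its hormone genes: in CPM, the counts scaled to a common library size with edgeR's TMM factors, Gh averaged 130810 CPM, Prl 54573 CPM and Pomc 55687 CPM over the 24 libraries. Egr1 itself ranged from 7.55 to 162 CPM in female Egr1cKO against 9.79 to 34.2 CPM in female Egr1cKO controls, and from 58.3 to 238 CPM in male Egr1cKO against 22.7 to 51.1 CPM in male Egr1cKO controls. With unfloxed Egr1 it ranged from 61.7 to 486 CPM in female Cre controls against 10.9 to 167 CPM in wild type females. In males it was 25.3 to 486 CPM in Cre controls against 19.1 to 51.5 CPM in wild type. Only the floxed male pair was free of overlap. Counts over the whole gene do not check the loss of an exon. The 3 female Egr1cKO libraries and female wild type replicate 1 stood apart: mitochondrially encoded genes took 8.73% to 10.4% and 10.1% of their counts, against 2.08% to 6.87% in the other 20. At equal depth 18442 to 20444 genes were detected in those female Egr1cKO libraries and 18609 in that wild type library, against 19856 to 25654 in the other 20. In fits over all libraries and in unfloxed females, a value of the 5 genes that moved by over 1.5 times without female wild type replicate 1 is also given without it. Differences between Cre differences, and sex differences within part of the genotypes, were not refitted without it.

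Shc2 was the least abundant of the 5, at 1.73 CPM per kilobase of exon over the 24 libraries. Ush1c had 8.66, P4ha2 6.62, Ddhd1 5.70 and Atg9b 4.80 CPM per kilobase. Raw counts of Shc2 were 30 to 566 per library, and Ddhd1, with the longest exons, had 963 to 3170 counts.

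**Figure D1:**
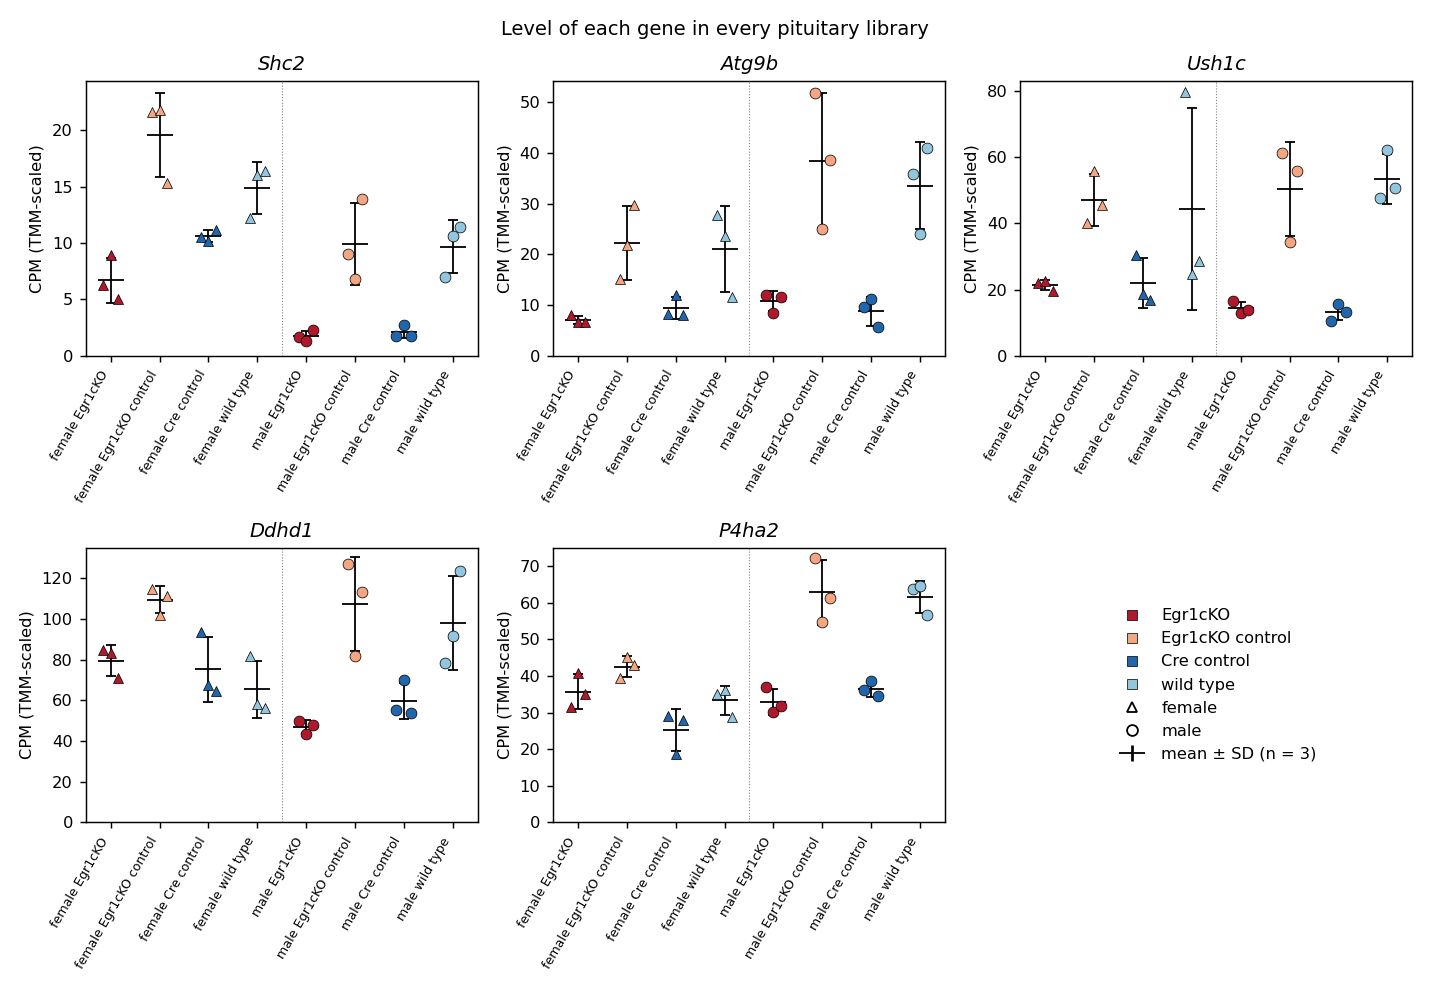
CPM (y axis, linear, from 0, on TMM-scaled library totals) of each gene in all 24 libraries, by group on the x axis; points are libraries, bars the mean ± SD of 3. All 5 genes are lower in male Egr1cKO and male Cre control than in the Cre-free males, while the female groups differ less for Ddhd1 and P4ha2.

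Shc2, the signalling adaptor, had the largest fold differences of the 5 genes in males. It measured 6.23, 8.89 and 5.003 CPM in female Egr1cKO libraries, against 21.6, 21.8 and 15.3 CPM in female Egr1cKO controls. The Cre control females had 10.5, 10.2 and 11.2 CPM, against 12.2, 16.1 and 16.4 CPM in wild type females. Both female pairs of groups were without overlap, the second by a narrow gap. Levels were 1.65, 1.35 and 2.25 CPM in male Egr1cKO, against 8.98, 6.82 and 13.9 CPM in male Egr1cKO controls. Cre control males measured 1.75, 2.72 and 1.77 CPM, against 6.98, 10.6 and 11.4 CPM in wild type males. All 6 Cre-carrying males lay below every other library. The fitted log2 fold changes were -1.55 (SE 0.313) in floxed females, -0.49 (SE 0.306) in unfloxed females, -2.49 (SE 0.333) in floxed males and -2.21 (SE 0.327) in unfloxed males.

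Atg9b, the autophagy membrane protein, was lower with Cre in both sexes. Female Egr1cKO libraries had 7.99, 6.71 and 6.64 CPM, against 15.05, 21.9 and 29.8 CPM in female Egr1cKO controls. Cre control females measured 8.25, 11.97 and 8.13 CPM, against 27.9, 23.7 and 11.6 CPM in wild type females. The floxed female groups did not overlap, while the unfloxed ones overlapped through wild type replicate 3. In male Egr1cKO the values were 12.1, 8.44 and 11.7 CPM, against 51.8, 25.1 and 38.6 CPM in male Egr1cKO controls. In male Cre controls they were 9.66, 11.1 and 5.58 CPM, against 35.8, 24.1 and 40.9 CPM in wild type males. Neither male pair overlapped. The log2 fold changes were -1.64 (SE 0.334) in floxed females, -1.15 (SE 0.329) in unfloxed females, -1.84 (SE 0.332) in floxed males and -1.93 (SE 0.334) in unfloxed males. Without female wild type replicate 1, the value in unfloxed females was -0.90.

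Atg9b shares 294 exonic bases with the last part of Nos3 on the other strand, 7.45% of its exons, and reads there cannot be given to a strand in these libraries. Nos3 (endothelial nitric oxide synthase, ENSMUSG00000028978, chr5:24364810-24384474) was lower than Atg9b in every group mean. It averaged 5.06 ± 1.19 CPM in female Egr1cKO and 3.10 ± 2.13 CPM in female Egr1cKO controls (SD, n = 3 each). The other 6 group means were 1.22 to 4.01 CPM. Nos3 took 41.6% of the mean CPM of the pair in female Egr1cKO and 7.43% to 22.6% in the other 7 groups. With both genes summed, the difference in floxed females was -1.06 on the log2 scale, smaller than the -1.64 for Atg9b alone.

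Ush1c, the harmonin gene, was lower with Cre in males and in floxed females. It measured 22.0, 22.7 and 19.7 CPM in female Egr1cKO, against 40.0, 55.8 and 45.6 CPM in female Egr1cKO controls. Cre control females had 30.6, 18.6 and 16.8 CPM, against 79.6, 24.8 and 28.8 CPM in wild type females. The unfloxed female groups overlapped, and wild type replicate 1 stood far above the other 2. Male Egr1cKO libraries had 16.5, 13.0 and 13.8 CPM, against 61.2, 34.4 and 55.9 CPM in male Egr1cKO controls. Male Cre controls had 10.6, 15.5 and 13.4 CPM, against 47.8, 62.1 and 50.8 CPM in wild type males. No Cre-carrying male reached any Cre-free male. The log2 fold changes were -1.13 (SE 0.319) in floxed females, -1.01 (SE 0.319) in unfloxed females, -1.81 (SE 0.325) in floxed males and -2.02 (SE 0.327) in unfloxed males. Without female wild type replicate 1, the value in unfloxed females was -0.29. In floxed females it was -1.81 once the mitochondrial share entered the fit.

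Ush1c shares 120 exonic bases, 3.12% of its exons, with Gm9860 on the other strand, an entry marked as to be experimentally checked. Gm9860 was at 0 counts in all 3 female Egr1cKO libraries, against 37, 14 and 181 counts in female Egr1cKO controls, and at 24, 1 and 0 counts in female Cre controls, against 0, 201 and 286 counts in wild type females. It had 107, 70 and 15 counts in male Egr1cKO, against 56, 175 and 363 counts in male Egr1cKO controls, and 13, 161 and 117 counts in male Cre controls, against 80, 16 and 419 counts in wild type males. All 4 means were lower with Cre, and only the floxed female groups were free of overlap. In the wild type female library where Ush1c was highest, Gm9860 was at 0.

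Ddhd1, the phosphatidic acid-preferring phospholipase, went against the label in unfloxed females. There it measured 93.7, 67.3 and 64.7 CPM in Cre controls, against 81.7, 58.3 and 56.4 CPM in wild type, and the groups overlapped. Floxed females had 84.5, 83.3 and 70.8 CPM in Egr1cKO, against 115, 102 and 111 CPM in Egr1cKO controls, without overlap. Among floxed males the values were 50.1, 43.2 and 47.9 CPM in Egr1cKO, against 127, 81.7 and 113 CPM in Egr1cKO controls. Unfloxed males had 55.2, 70.1 and 53.8 CPM in Cre controls, against 78.6, 91.9 and 123 CPM in wild type. Neither male pair overlapped. The log2 fold changes were -0.46 (SE 0.200) in floxed females, 0.20 (SE 0.200) in unfloxed females, -1.19 (SE 0.202) in floxed males and -0.71 (SE 0.200) in unfloxed males. The unfloxed female value was 0.39 without wild type replicate 1 and 0.0066 without Cre control replicate 1. With library totals in place of TMM, the value in unfloxed males was -0.40.

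Ddhd1 shares 718 exonic bases, 5.1% of its exons, with the antisense gene Gm15601, and the reads there cannot be given to a strand. Gm15601 averaged 3.47 ± 1.18 CPM in female Egr1cKO and 8.001 ± 3.36 CPM in female Egr1cKO controls, and 6.49 ± 0.539 CPM in female Cre controls and 4.67 ± 2.14 CPM in wild type females (SD, n = 3 each). It averaged 5.94 ± 1.71 CPM in male Egr1cKO and 13.7 ± 8.64 CPM in male Egr1cKO controls, and 5.55 ± 0.192 CPM in male Cre controls and 9.33 ± 5.14 CPM in wild type males. Its signs were those of Ddhd1, at -1.21 and 0.47 in floxed and unfloxed females and -1.21 and -0.75 in floxed and unfloxed males on the log2 scale, and none was called. Whether shared reads take part was not tested.

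P4ha2, the collagen prolyl hydroxylase subunit, had the smallest differences of the 5 genes in floxed libraries of both sexes. It measured 31.5, 40.7 and 35.0 CPM in female Egr1cKO, against 39.4, 45.1 and 43.0 CPM in female Egr1cKO controls. Cre control females had 29.0, 18.6 and 28.0 CPM, against 35.1, 36.0 and 28.9 CPM in wild type females. Both female pairs overlapped by 1 library. Male Egr1cKO libraries measured 37.0, 30.1 and 31.8 CPM, against 72.3, 54.7 and 61.4 CPM in male Egr1cKO controls. Male Cre controls measured 36.2, 38.6 and 34.5 CPM, against 63.7, 64.6 and 56.6 CPM in wild type males. The 6 Cre-carrying males lay below the 6 Cre-free males, within the range of the female libraries. The log2 fold changes were -0.25 (SE 0.177) in floxed females, -0.40 (SE 0.178) in unfloxed females, -0.93 (SE 0.178) in floxed males and -0.76 (SE 0.177) in unfloxed males. With library totals in place of TMM, the last of these was -0.43.

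**Figure D2:**
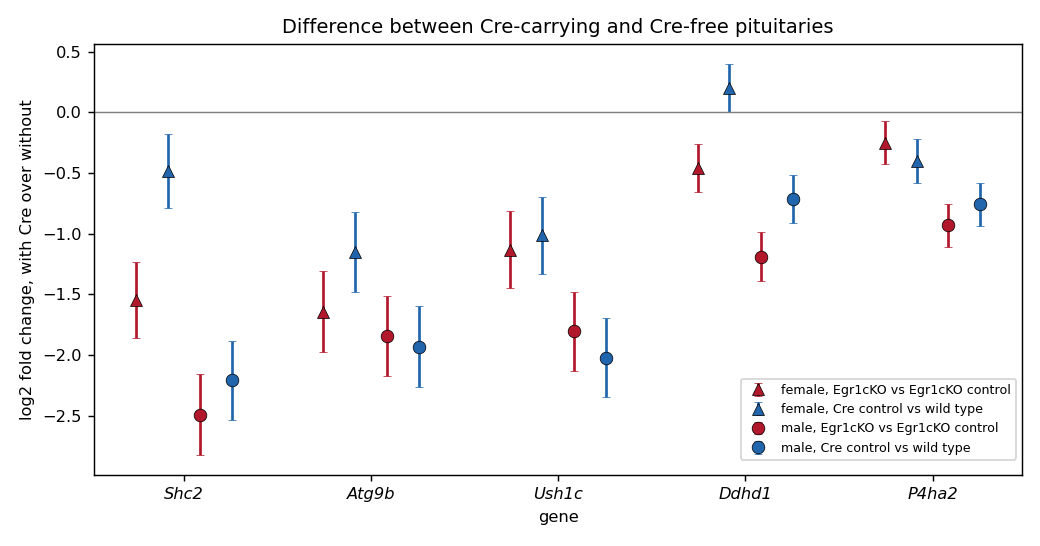
Fitted log2 fold change of Cre-carrying over Cre-free libraries (y axis) for each gene (x axis), in females (triangles) and males (circles), with floxed Egr1 in red and without in blue; bars are ± 1 SE. Ddhd1 in unfloxed females is the single value above 0, at 0.20.

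Across the 4 comparisons, 4 of the 5 genes had a negative log2 fold change in all 4, which 11.1% of all tested genes had. Groups were without overlap, the Cre-carrying one lower, for 4 of the 5 genes in floxed females (11.9% of all tested genes), 1 in unfloxed females (6.83%), 5 in floxed males (10.2%) and 5 in unfloxed males (10.5%). At an adjusted p threshold of 0.05 in edgeR, the fit called lower 2 of the 5 in floxed females (1.45% of all tested genes), 0 in unfloxed females (0.839%), 5 in floxed males (0.041%) and 3 in unfloxed males (0.196%). Since these comparisons chose the genes, nothing is read from those counts.

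The median log2 fold change of the 5 was -1.13 in floxed females, -0.49 in unfloxed females, -1.81 in floxed males and -1.93 in unfloxed males, against -0.05, -0.04, 0.03 and 0.01 over all tested genes. Each gene's difference was smaller in size in females than in males when averaged over the floxed and unfloxed pairs. Female minus male, the Cre difference was 1.34 (SE 0.313) for Shc2, 0.49 (SE 0.325) for Atg9b, 0.84 (SE 0.316) for Ush1c, 0.82 (SE 0.200) for Ddhd1 and 0.52 (SE 0.177) for P4ha2 on the log2 scale. These are not tested, because choosing genes for a large difference in males favours such a sign. Floxed minus unfloxed, the Cre difference was -0.67 (SE 0.313) for Shc2 and -0.57 (SE 0.200) for Ddhd1, and between -0.20 and 0.05 for the other 3 genes, also untested. These were not refitted without female wild type replicate 1, on which the values of Ush1c and Atg9b rest in part. Without that library their Cre differences in unfloxed females were -0.29 and -0.90, against -1.01 and -1.15 with it.

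Markers of several cell types differed with Cre in the same libraries, not always in 1 direction within a list. The summed level of 3 lactotrope markers (Prl, Drd2, Pou1f1) was 21071 to 49271 CPM in female Egr1cKO against 81520 to 140307 CPM in female Egr1cKO controls, and 58015 to 75786 CPM in female Cre controls against 113422 to 151579 CPM in wild type females. In males it was 4106 to 7392 CPM in Egr1cKO against 15491 to 47102 CPM in Egr1cKO controls, and 3399 to 4504 CPM in Cre controls against 37034 to 43926 CPM in wild type. All 4 pairs were lower with Cre, without overlap, but the sum is almost all Prl, and the other 2 markers went opposite ways. Drd2, the dopamine receptor gene, was 181 to 237 CPM in female Egr1cKO against 67.3 to 116 CPM in female Egr1cKO controls, 175 to 197 CPM in male Egr1cKO against 60.4 to 162 CPM in male Egr1cKO controls, and 155 to 207 CPM in male Cre controls against 84.9 to 141 CPM in wild type males. It was thus higher with Cre in these 3 pairs, and it overlapped in unfloxed females. Pou1f1, the transcription factor gene of lactotropes, somatotropes and thyrotropes, was lower without overlap in the same 3 pairs, for example at 28.1 to 76.2 CPM in female Egr1cKO against 178 to 212 CPM in female Egr1cKO controls. Drd2 and Pou1f1 together averaged 324 CPM in male Egr1cKO and 311 CPM in male Egr1cKO controls, and 323 CPM in male Cre controls and 324 CPM in wild type males. The 3 somatotrope markers (Gh, Ghrhr, Pou1f1) summed to 45246 to 64463 CPM in female Egr1cKO against 107036 to 190603 CPM in female Egr1cKO controls. They summed to 83076 to 85882 CPM in female Cre controls against 50457 to 182742 CPM in wild type females, where the ranges overlapped. Their male sums were 103136 to 121793 CPM in Egr1cKO against 153317 to 374919 CPM in Egr1cKO controls, and 41362 to 89881 CPM in Cre controls against 188967 to 278625 CPM in wild type. Without Gh, which makes up nearly all of that sum, Ghrhr and Pou1f1 were lower too, at 139 to 226 CPM in female Egr1cKO against 411 to 560 CPM in female Egr1cKO controls and 205 to 241 CPM in male Egr1cKO against 371 to 566 CPM in male Egr1cKO controls.

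Other marker sums were higher with Cre. The 3 corticotrope markers (Pomc, Crhr1, Tbx19) summed to 81241 to 224829 CPM in female Egr1cKO against 11712 to 38794 CPM in female Egr1cKO controls, and to 38936 to 111354 CPM in male Egr1cKO against 7408 to 31073 CPM in male Egr1cKO controls. They summed to 50856 to 93733 CPM in female Cre controls against 35767 to 40252 CPM in wild type females, and to 30208 to 46904 CPM in male Cre controls against 8915 to 48313 CPM in wild type males, where the ranges overlapped. Without Pomc, which dominates that sum, the other 2 were 253 to 448 CPM in female Egr1cKO against 166 to 247 CPM in female Egr1cKO controls and 220.5 to 251 CPM in male Egr1cKO against 162 to 178 CPM in male Egr1cKO controls. Both unfloxed pairs overlapped without Pomc. Female Cre controls had 223 to 459 CPM against 170.5 to 242 CPM in wild type females. Male Cre controls had 214 to 250 CPM against 115 to 222 CPM in wild type males. Pomc is also on the melanotrope list. The other 3 markers of that list (Pcsk2, Pax7, Oacyl) were higher with Cre without overlap in all 4 pairs. Their sums were 2150 to 3474 CPM in female Egr1cKO against 327 to 1148 CPM in female Egr1cKO controls. Unfloxed females had 1551 to 2127 CPM with Cre against 787 to 1340 CPM without. Floxed males had 1109 to 2296.5 CPM with Cre against 173 to 887 CPM without. In unfloxed males the sums were 1058 to 1682 CPM against 234 to 812 CPM. The 6 posterior lobe and pituicyte markers summed to 416 to 569 CPM in female Egr1cKO against 238 to 260 CPM in female Egr1cKO controls, and to 237 to 290 CPM in male Egr1cKO against 83.6 to 213 CPM in male Egr1cKO controls. They summed to 352 to 399.5 CPM in female Cre controls against 256 to 312 CPM in wild type females, and to 166 to 301 CPM in male Cre controls against 101 to 169.7 CPM in wild type males, where the ranges overlapped. The 5 stem and folliculostellate markers were higher with Cre without overlap in 3 pairs, at 186 to 216 CPM in female Egr1cKO against 135 to 156 CPM in female Egr1cKO controls, 196 to 243 CPM in female Cre controls against 138 to 186 CPM in wild type females, and 279 to 288 CPM in male Egr1cKO against 190.1 to 239.7 CPM in male Egr1cKO controls. The fourth pair overlapped, at 218 to 255 CPM in male Cre controls against 166 to 219 CPM in wild type males. The 3 thyrotrope markers were higher with Cre in males, at 678 to 944 CPM in Egr1cKO against 253 to 376 CPM in Egr1cKO controls and 736 to 1203 CPM in Cre controls against 362 to 591 CPM in wild type. They were also higher in unfloxed females, at 612 to 740.4 CPM in Cre controls against 240.4 to 254 CPM in wild type, and overlapped in floxed females, at 254 to 292 CPM in Egr1cKO against 262 to 515 CPM in Egr1cKO controls. Endothelial markers, 7 in all, overlapped in each of the 4 pairs, with group means of 154 to 255 CPM over the 8 groups. Gonadotrope sums were higher with Cre in unfloxed females, at 2024 to 3291 CPM against 965 to 1180 CPM. In unfloxed males they were 2993 to 6843 CPM against 2615 to 2882 CPM, and both floxed pairs overlapped. Mural and fibroblast sums were higher without overlap in floxed females alone, at 298 to 373 CPM against 201 to 281 CPM. Leukocyte sums were higher without overlap in both floxed pairs and overlapped in both unfloxed pairs. Every listed marker of these types was counted in all 24 libraries. Whether these shifts take part in the differences of the 5 genes was not tested, and in whole pituitaries fewer cells of a type and less RNA per cell cannot be told apart.

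The sexes were compared over all 4 genotypes, a comparison that is orthogonal to each Cre contrast in this balanced design. That separates only the noise of the estimates. A Cre difference that is unequal between the sexes still enters the average over Cre states. Choosing genes for low counts in Cre-carrying males thus favours higher values in females, and the p-values below are not free of that choice. Shc2 was higher in females than in males, P4ha2 and Atg9b were lower, and Ush1c and Ddhd1 did not pass the test. Shc2 was 5.003 to 21.8 CPM (median 11.7) in the 12 female libraries, against 1.35 to 13.9 CPM (median 4.77) in the 12 male libraries. In each of the 4 genotypes all 3 females lay above all 3 males. Females exceeded males by 1.47 on the log2 scale (SE 0.159, edgeR adjusted p = 5.12e-07), where 9.99% of all tested genes were called higher in females. It was 1.46 within floxed libraries (edgeR adjusted p = 0.000164, 8.49% of genes called higher). Within unfloxed libraries it was 1.48 (adjusted p = 0.000262, 0.725% called higher), in the same edgeR fit. These values average over Cre states. By single genotype, not tested, Shc2 differed by 0.62 (SE 0.307) in wild type and 0.98 (SE 0.308) in Egr1cKO controls. The differences were larger with Cre, at 2.35 (SE 0.329) in Cre controls and 1.93 (SE 0.329) in Egr1cKO.

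P4ha2 was 18.6 to 45.1 CPM (median 35.0) in females, against 30.1 to 72.3 CPM (median 46.7) in males. All 3 females lay below all 3 males in 3 of the 4 genotypes, the exception being Egr1cKO. There the log2 difference was 0.12 (SE 0.177), not tested. Over all genotypes it came to -0.47 on the log2 scale (SE 0.0885, edgeR adjusted p = 0.000677), where 11.7% of all tested genes were called lower in females. Within unfloxed libraries it was -0.71 (edgeR adjusted p = 0.00157; 0.762% of genes called lower), and within floxed libraries -0.22 (adjusted p = 0.215). The difference between these, 0.49 (SE 0.177), did not pass (edgeR adjusted p = 0.575).

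Atg9b was 6.64 to 29.8 CPM (median 11.8) in females, against 5.58 to 51.8 CPM (median 18.1) in males. The sexes overlapped in 3 of the 4 genotypes and not in Egr1cKO, where females were lower. The log2 fold change of -0.49 (SE 0.163) had an edgeR adjusted p of 0.0329, and it was -0.69 (adjusted p = 0.036; 10.7% of genes called lower) within floxed and -0.29 (adjusted p = 0.635) within unfloxed libraries. The call was lost with Atg9b and Nos3 summed (-0.35, adjusted p = 0.0976), with the mitochondrial share as a covariate (adjusted p = 0.262) and with the number of detected genes as a covariate (adjusted p = 0.147). It was also lost in edgeR without any 1 of 9 libraries, with adjusted p from 0.0516 to 0.0706: replicate 1 of male Egr1cKO, of male Egr1cKO control and of female Egr1cKO control, replicates 1 and 3 of male wild type, replicates 1 and 2 of male Cre control, and replicates 1 and 3 of female Cre control.

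Ush1c had a sex difference of 0.23 (SE 0.158, edgeR adjusted p = 0.305), with an interval of 1.96 SE from -0.08 to 0.54. Without female wild type replicate 1 it was 0.049 (edgeR adjusted p = 0.833), and its sign turned with either covariate. Ddhd1 had 0.13 (SE 0.0997, edgeR adjusted p = 0.356), with an interval from -0.06 to 0.33, and 0.083 (edgeR adjusted p = 0.579) without female wild type replicate 1. Within floxed libraries Ddhd1 was 0.39 (edgeR adjusted p = 0.0511), and within unfloxed libraries -0.12 (adjusted p = 0.763). By single genotype Ddhd1 had both signs, which was not tested. Values were 0.76 (SE 0.201) in Egr1cKO and 0.33 (SE 0.200) in Cre controls. They were 0.03 (SE 0.199) in Egr1cKO controls and -0.58 (SE 0.200) in wild type. Mitochondrial shares differed between the sexes, at 2.14% to 10.4% in females and 2.08% to 4.80% in males. With that share as a covariate Shc2 was at 1.64 (edgeR adjusted p = 1.95e-05) and P4ha2 at -0.53 (adjusted p = 0.0142), both still called.

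**Figure D3:**
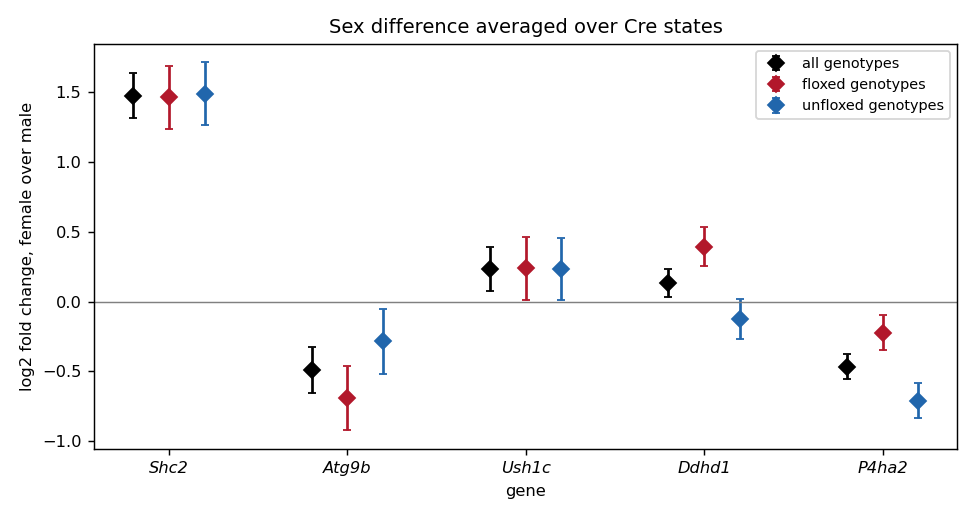
Fitted log2 fold change of female over male (y axis) for each gene (x axis), over all genotypes in black, within the floxed genotypes in red and within the unfloxed genotypes in blue, each averaged over Cre states; bars are ± 1 SE. Shc2 is near 1.47 in all 3, while the values of P4ha2 and Ddhd1 lie 0.49 and 0.52 apart between the floxed and unfloxed libraries. Neither gap passed the test (edgeR adjusted p = 0.575 and 0.579), and flox status cannot be told apart from the number series of the titles. By single genotype, not shown here, Shc2 ran from 0.62 in wild type to 2.35 in Cre controls.

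Floxed and unfloxed libraries also differ in the number series of their titles, so flox status and series cannot be told apart. None of the 5 genes passed the comparison of floxed with unfloxed libraries, nor did any of the 21927 genes (0%; 1403 at an unadjusted p under 0.05, and 12 called by DESeq2). The closest was P4ha2, at 0.18 (SE 0.0883, edgeR adjusted p = 0.76). For Shc2 the difference was -0.12, for Atg9b 0.04, for Ush1c 0.03 and for Ddhd1 0.15, with SE of 0.0997 to 0.163. Without female wild type replicate 1, Atg9b was at 0.10 and Ush1c at 0.21 (edgeR adjusted p = 0.821 and 0.341). The interaction of sex with flox called no gene in edgeR either (0%; 1857 at an unadjusted p under 0.05, and 13 by DESeq2). Ddhd1 had 0.52 (SE 0.200, edgeR adjusted p = 0.579) in that interaction. Shc2 and Ush1c had -0.03 and 0.0048, which became -0.093 and 0.36 without female wild type replicate 1, uncalled in either fit. Without female wild type replicate 1 the interaction value of Ddhd1 was 0.61 (edgeR adjusted p = 0.04), and Ddhd1 was 1 of 1488 genes called. The comparison of floxed with unfloxed libraries then called 633.

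The order of the group means followed Cre first for Atg9b, with the 4 Cre-free groups at 21.1 to 38.5 CPM above the 4 Cre-carrying ones at 7.11 to 10.7 CPM. Neighbouring groups in that order overlapped throughout. Ush1c was ordered the same way, with means of 44.4 to 53.5 CPM in Cre-free groups and 13.2 to 22.0 CPM in Cre-carrying groups. The lowest Cre-free mean, of wild type females, rests on replicate 1 and was 26.8 CPM over the other 2 libraries. For Shc2 the female Cre controls, at 10.6 ± 0.518 CPM (SD, n = 3), stood level with the Cre-free males, at 9.90 ± 3.62 CPM in Egr1cKO controls and 9.66 ± 2.36 CPM in wild type (SD, n = 3 each). Ddhd1 was lowest in male Egr1cKO, at 47.1 CPM, and highest in female Egr1cKO controls, at 109 CPM, and the lowest group alone was free of overlap with its neighbour in the order. P4ha2 was highest in the Cre-free males, at 62.8 and 61.7 CPM, and the other 6 groups lay between 25.2 and 42.5 CPM.

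No listed relative of the 5 genes was called in the Cre comparisons. Of the 8 Shc adaptors and partners, 14 ATG9 autophagy genes, 3 nitric oxide synthases, 10 Usher proteins and 13 collagen hydroxylases and partners, and of the 4 DDHD and PA-PLA1 lipases tested, none passed the test in any of the 4 Cre comparisons in edgeR. The lists were set up with earlier results of these data known. Over all tested genes, 2.21% were called in floxed females, 1.21% in unfloxed females, 0.041% in floxed males and 0.233% in unfloxed males.

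Shc1, the widely expressed family member, was far more abundant than Shc2, at 15.3 CPM per kilobase. Its log2 fold changes with Cre were -0.44 and 0.02 in floxed and unfloxed females and -0.23 and -0.15 in floxed and unfloxed males. Shc3 and Shc4, the other family members, averaged 1.19 and 2.27 CPM. Atg9a, the other ATG9 gene, stood at 3.39 CPM per kilobase over the 24 libraries, below the mean of Atg9b. That order does not hold for every group, since Atg9b was at 1.80 to 2.72 CPM per kilobase in the Cre-carrying groups. With Cre, Atg9a differed by -0.88 and -0.56 in floxed and unfloxed females and by -0.22 and 0.41 in floxed and unfloxed males (SE 0.367 to 0.371). P4ha1, the other main catalytic subunit, had 31.2 CPM per kilobase and log2 fold changes of -0.04 to 0.28. P4hb, which encodes the shared protein disulphide isomerase subunit, had 179 CPM per kilobase and log2 fold changes of -0.15 to 0.43.

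Among the Usher genes, Whrn and Myo7a had negative log2 fold changes in all 4 Cre comparisons without passing the test. Whrn, the whirlin scaffold gene, was at -0.52 and -0.46 in floxed and unfloxed females and -1.32 and -1.11 in floxed and unfloxed males, with edgeR adjusted p from 0.199 to 0.51. Myo7a, the hair cell myosin that binds harmonin, was at -0.38 and -1.10 in floxed and unfloxed females and -0.98 and -1.31 in floxed and unfloxed males, with edgeR adjusted p from 0.137 to 0.629. Cdh23 and Ush1g averaged 0.493 and 0.588 CPM, too low for a firm statement. Pcdh15, a protocadherin of the hair cell tip link, ranged from -0.41 to 1.09. The closest lipase, Ddhd2, ranged from -0.33 to 0.00.

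**Figure D4:**
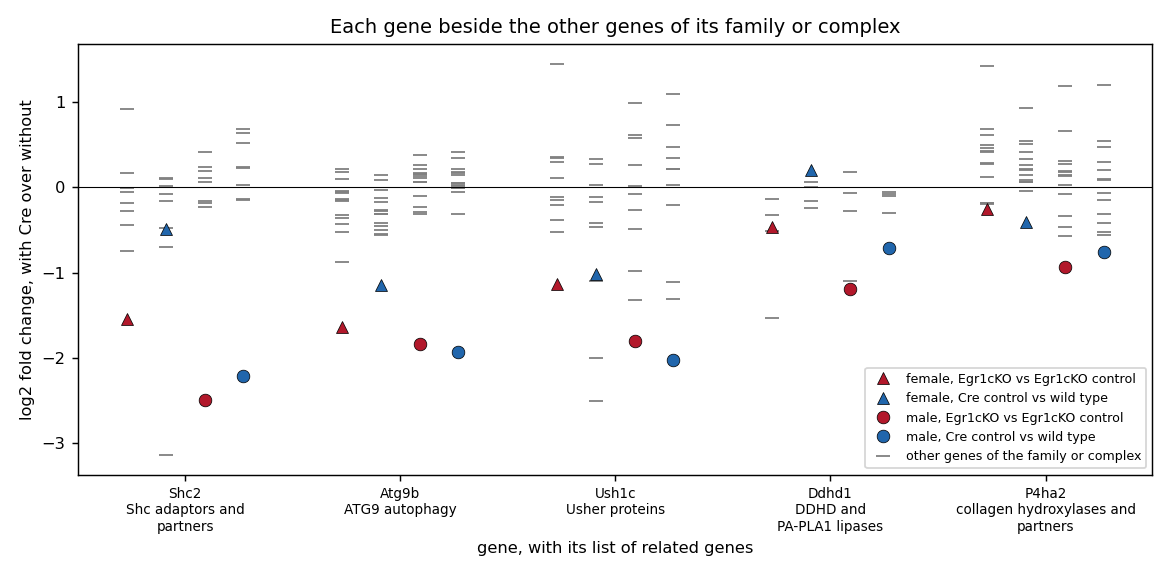
Fitted log2 fold change of Cre-carrying over Cre-free libraries (y axis) for each gene (coloured symbols) and for the other tested genes of its family or complex (grey dashes), in females and males with and without floxed Egr1. In both male comparisons Shc2, Atg9b, Ush1c, Ddhd1 and P4ha2 lie below every tested gene of their own lists. These named genes were chosen for lower counts with Cre, above all in floxed males, and their listed relatives were not. That choice favours such a position, so nothing is read from it.

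Between the sexes, where 21.7% of all tested genes were called, the lists held both directions. Of the 13 collagen hydroxylases and partners, 5 were higher in females and 1 lower, 7 not passing. P3h1, a prolyl 3-hydroxylase, was higher by 0.58 (edgeR adjusted p = 0.000848), and Serpinh1, the collagen chaperone HSP47, by 0.46 (adjusted p = 0.00413). P3h4 was lower, at -0.43 (edgeR adjusted p = 0.0127). P4ha2 itself was lower in females, as given above. In the Shc list 1 of 8 genes was lower, the phosphatase gene Ptpn11, at -0.58 (edgeR adjusted p = 0.000826). In the autophagy list 1 of 14 was higher and 2 lower, and the kinase gene Ulk1 was the higher one, at 0.48 (edgeR adjusted p = 0.00257). In the lipase list 1 of 4 was higher and 2 lower, with Ddhd2 higher by 0.38 (edgeR adjusted p = 0.0108), and 2 of 10 Usher genes were lower.

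The genes whose log2 CPM most resembled each of the 5 over the 24 libraries were taken from 13836 genes with a mean of at least 1 CPM. These correlations are descriptions: the libraries share their Cre and sex groups, and the points are not independent of the choice of genes. Shc2 was closest to Prl, the prolactin gene, with Pearson's r of 0.944 and Spearman's rho of 0.901, and r of 0.933 without the 2 farthest libraries. Within the 12 Cre-carrying libraries r was 0.945, within the 12 Cre-free libraries 0.820, and between deviations from the group means 0.460. Prl averaged 38585 CPM in female Egr1cKO against 114715 CPM in female Egr1cKO controls, and 5573 CPM in male Egr1cKO against 33699 CPM in male Egr1cKO controls. Next came Nrxn3, a presynaptic adhesion gene, with r of 0.902, and Ehf, an ETS-family transcription factor gene, with 0.887.

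Atg9b was closest to Rxrg, a retinoid X receptor gene, with r of 0.889, followed by Kcna2, a potassium channel gene, and Gh, the growth hormone gene, both at 0.884. Gh kept r of 0.746 within the Cre-carrying libraries, 0.869 within the Cre-free libraries and 0.755 between deviations from the group means. Kcna2 had 0.114 within the Cre-carrying libraries. Atg9b and Nos3, which share exonic bases, had r of only 0.180.

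Ush1c was closest to Ryr1, the ryanodine receptor gene, with r of 0.929, then Usp3, a deubiquitinase gene, with 0.925, and Plekha7, an adherens junction gene, with 0.919. Between deviations from the group means these were 0.739, 0.821 and 0.766. Skeletal muscle markers, 7 in all, summed to 2.33 to 30.8 CPM over the 24 libraries, the highest in a female wild type library, and each of the 7 was at 0 in at least 1 library. Ddhd1 was closest to Chuk, an IκB kinase gene, with r of 0.864, then Dlec1 with 0.860 and the collagen gene Col27a1 with 0.856. P4ha2 was closest to Ano9, an anoctamin gene, with r of 0.887, then Htatsf1 with 0.875 and Ugt8a, a galactosylceramide synthesis gene, with 0.874.

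**Figure D5:**
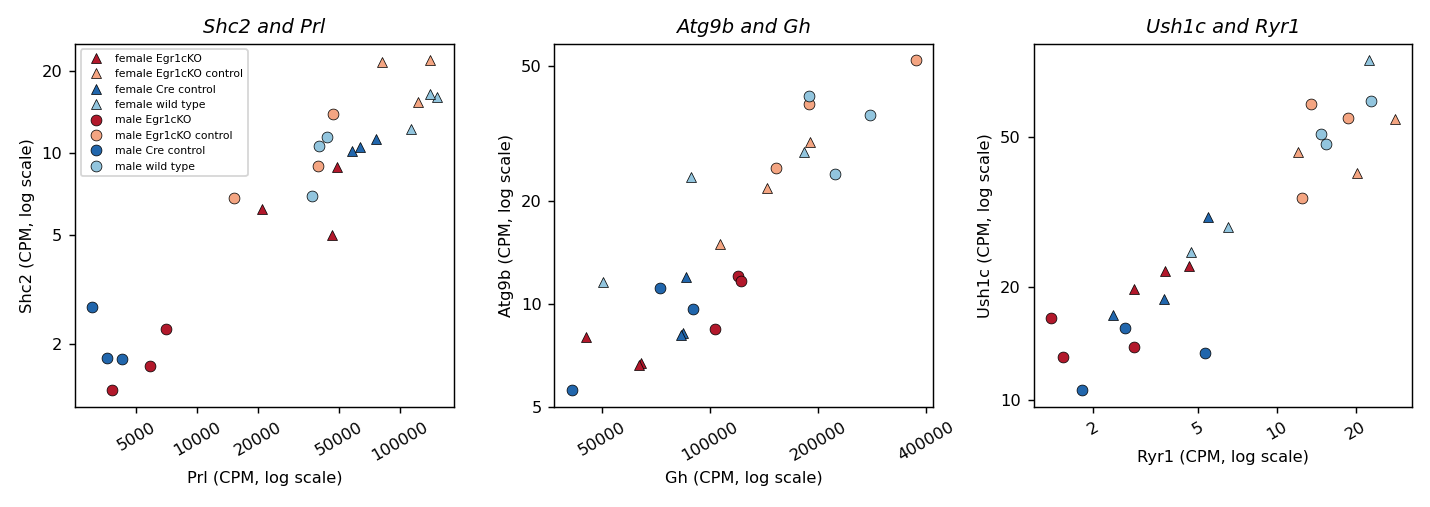
CPM of Shc2 against Prl, Atg9b against Gh and Ush1c against Ryr1 in all 24 libraries, both axes on a log scale; colours give the genotype, triangles females and circles males. Pearson's r of log2 CPM is 0.944, 0.884 and 0.929, and the Cre-carrying males lie at the lower left for Shc2 with Prl, while the female Cre controls, with 10.2 to 11.2 CPM of Shc2, lie among the Cre-free males in Shc2 and above them in Prl.

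Among themselves the 5 genes did not move as 1 set. Ush1c and Ddhd1 had r of 0.805 over the 24 libraries and 0.724 between deviations from the group means, and 0.850 and 0.609 within the Cre-carrying and Cre-free libraries. Ush1c and Atg9b had 0.808 over all libraries but -0.204 within the Cre-carrying ones. Shc2 and P4ha2 were the least alike, with r of 0.193 over all libraries, and -0.441 and -0.634 within the Cre-carrying and Cre-free libraries. Shc2 had the higher mean in females in every genotype. P4ha2 had the lower mean in females in every genotype but Egr1cKO.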

How the data were processed

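The deposited table holds raw counts, whole numbers per Ensembl gene for 24 pituitary libraries, with no normalization by the authors. The submitters' processing notes name STAR 2.7.9, Trim Galore 3.8.2 and FastQC as tools and GRCm38 as the build; per the labels' protocols, 1.5 ug of total RNA went into each non-stranded library. The sources used here name no counting tool, and 35077 of 35191 identifiers matched GENCODE M21. Sex labels matched the counts in 24 of 24 libraries, and no 2 libraries were duplicates (lowest chi-square per degree of freedom 16.3 over 24 pairs within groups and 16.5 over 252 pairs across groups).

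Counts were fitted in R 4.3.3 with edgeR 4.0.16: filterByExpr, TMM, 1 mean for each of 8 groups (16 residual degrees of freedom, median biological coefficient of variation 0.337) and the robust quasi-likelihood test. Adjusted p is Benjamini-Hochberg over 21927 genes, threshold 0.05. Fold changes used a prior count of 0.125, and correlations log2 CPM with a prior count of 2. limma 3.58.1 and DESeq2 1.42.0 served as alternatives. The fit was tested on simulated data. Members, gene lists and tests were chosen with earlier results of these data known. Genes named besides the 5 are the listed relatives closest in family, the list members that passed, the 3 genes most alike in pattern (Gm, Rik and pseudogene names skipped), and overlapping or neighbouring genes. Lipi was not analysed here.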

Additional observations from a re-analysis of the deposited data

How the results depend on the processing

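No paired analysis was possible because the titles give each library its own number and no replicate number is shared between groups. In the Cre comparisons no value of the 5 genes changed sign under the alternatives run; 323 moved by less than the spread between replicates and 6 by more: with library totals, unfloxed males were at -1.69 for Ush1c, -0.40 for Ddhd1 and -0.43 for P4ha2; floxed females were at -1.81 for Ush1c with the mitochondrial share, at -1.47 with detected genes, and at -1.06 for Atg9b summed with Nos3. The female against male call of Shc2 held in all alternatives (adjusted p 4.87e-18 to 0.000262), that of P4ha2 was lost within floxed libraries alone (adjusted p = 0.215), and that of Atg9b was lost as described above and with limma voom (adjusted p = 0.0647). The cause was not tested.

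Counts of genes called depended on the processing far more than these values. With library totals and no TMM the edgeR fit called 297 genes in floxed females. Without a filter on low counts, which tests 35191 genes, it called 1142 in floxed females, 1149 in unfloxed females, 339 in floxed males, 704 in unfloxed males, 74 for flox and 87 for sex by flox. DESeq2 called 1453, 1011, 103 and 264 in the same 4 Cre comparisons, and 12 and 13 for flox and sex by flox. limma voom called 148 in unfloxed females and 5 in floxed males. With the mitochondrial share as a covariate 3081, 599, 208 and 179 were called in the Cre comparisons, 596 between the sexes and 1 for flox. With the number of detected genes as a covariate 935 were called in floxed females, 162 in unfloxed males, 767 between the sexes and 1 for flox. Fits of the contrast's own libraries called 2 in unfloxed females, 192 in floxed males and 112 in unfloxed males. Within unfloxed libraries 326 were called between the sexes. Without the 4 libraries of the highest mitochondrial share, an alternative chosen after seeing the data like the fits within floxed and unfloxed libraries, 4058 were called in unfloxed females.

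Leaving out 1 library at a time gave 142 to 581 calls in floxed females, 29 to 3603 in unfloxed females, 2 to 28 in floxed males, 4 to 24 in unfloxed males, 3729 to 5495 between the sexes, 0 to 633 for flox and 0 to 1488 for sex by flox; the highest value in unfloxed females, for flox and for sex by flox came without female wild type replicate 1.

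Signs turned for uncalled values near 0. Shc2 in sex by flox was -0.03 and became 0.00017 with DESeq2 size factors, 0.00077 with DESeq2, 0.058 with the mitochondrial share and 0.064 with detected genes. Ush1c in the same test was 0.0048 and became -0.13 and -0.17 with these covariates, and between the sexes -0.32 and -0.13. Its flox value was 0.03 and became -0.018 with library totals and -0.064 with the mitochondrial share, and Atg9b for flox became -0.016 with library totals. Ddhd1 between the sexes was -0.12 within unfloxed libraries. With 1 library left out the ranges were -0.16 to 0.13 for Shc2 and -0.15 to 0.36 for Ush1c in sex by flox, and -0.052 to 0.21 for Ush1c and -0.039 to 0.10 for Atg9b for flox.

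Library totals shifted the median of all genes to -0.18, against -0.06, between the sexes (1220 genes higher and 3687 lower, against 2190 and 2571), to 0.34, against 0.01, in unfloxed males (29 higher and 12 lower, against 8 and 43) and to 0.15, against 0.03, in floxed males. In floxed females they gave 71 higher and 226 lower, against 167 and 317, and in unfloxed females 134 higher and 68 lower, against 81 and 184. Relative to that shift all 5 genes were still lower with Cre in both male comparisons.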

Other observations

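The genes next to the 5 were mixed, some following them and some not. Shc2 shares 63 bases at its start with Gm47163, a lncRNA read from the opposite strand, whose reads cannot be told apart from those of Shc2 over these bases. Gm47163 averaged 1.77 ± 0.618 CPM in female Egr1cKO and 8.13 ± 1.33 CPM in female Egr1cKO controls, and 0.610 ± 0.299 CPM in male Egr1cKO and 3.78 ± 2.77 CPM in male Egr1cKO controls (SD, n = 3 each). It averaged 2.28 ± 1.95 CPM in female Cre controls and 11.4 ± 1.27 CPM in wild type females, and 0.333 ± 0.156 CPM in male Cre controls and 6.04 ± 2.72 CPM in wild type males. All 4 means were thus lower with Cre, and the one in unfloxed males was called by edgeR (0.196% of all tested genes were called lower). C2cd4c, 4026 bases from Shc2, had log2 fold changes of -2.39 and -1.83 in floxed and unfloxed females and -1.98 and -2.41 in floxed and unfloxed males, none of which passed (edgeR adjusted p from 0.124 to 0.675).

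Abcb8, a mitochondrial transporter gene 1520 bases from Atg9b, had log2 fold changes of -0.18 to 0.19, and Fermt2, 58349 bases from Ddhd1, of -0.10 to 0.16. Abcc8, which encodes the sulphonylurea receptor and lies 15317 bases from Ush1c, was lower in floxed females at -1.75 (SE 0.432, edgeR adjusted p = 0.0332, where 1.45% of all tested genes were called lower) and did not pass in the other 3 comparisons, at -0.86 to -1.30. Pdlim4, 31081 bases from P4ha2, had 0.46 to 1.29, none passing, and Acsl6, 172133 bases away on the other side, had -0.70 to -0.05, none passing. The other neighbours, Madcam1, Gm15587, Otog and A530076I17Rik, averaged 0.182 to 0.579 CPM, too low for a firm statement. Whether neighbours share reads or control with the 5 genes was not tested.

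Of 7 collagens, the substrates of the enzyme that P4ha2 belongs to, 1 passed in the Cre comparisons: Col5a2 was higher in floxed females at 1.39 (edgeR adjusted p = 0.0331, where 0.762% of all tested genes were called higher). Between the sexes 3 of the 7 were higher in females, Col1a2 by 0.88, Col5a1 by 0.71 and Col5a2 by 0.62 (edgeR adjusted p = 1.24e-05, 0.00303 and 0.0117).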
